A study of Mus musculus with 34 samples.

Results

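The genes described here encode the machinery that docks, primes and fuses synaptic and secretory vesicles. Members were protein-coding genes whose symbols begin with or equal those of the synaptotagmins (Syt), synapsins (Syn), syntaxins (Stx), syntaxin-binding proteins (Stxbp), VAMPs, SNAPs, complexins (Cplx), Rims, Unc13, Sv2 and Rab3 genes. The rule found 89 members among 28432 genes in the table of cell lines at 96 h, 30351 genes in the table of cultures at 10 d and 29745 genes in the tumor table. Because it reads symbols, the rule also took in 12 Rab GTPases of the Rab30 to Rab39 series and Snap91, a clathrin adaptor of endocytosis. The filter on low counts kept 75 members in each of the tables for the treatment comparisons and 79 for the comparisons between cell lines.

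Murine SCLC (small cell lung cancer), whose cells are of neuroendocrine type, was treated with bomedemstat (BOM), which blocks the histone demethylase LSD1, and RNA was sequenced in 34 libraries. At 96 h the lines RP-116, RP-48 and G8545 each gave 1 library with DMSO, the solvent control, and 1 with BOM. At 10 d the line RP-48OVA-LLO190 gave 3 libraries with DMSO, 2 with BOM, 3 with DMSO plus interferon gamma (IFNg) and 2 with BOM plus IFNg, the IFNg being present for the last 48 h. Flank tumors grown from RP-48OVA-LLO190 in immunocompetent mice gave 5 libraries from vehicle-treated animals, 4 with BOM, 5 with an antibody against the checkpoint receptor PD1 (anti-PD1) and 4 with BOM plus anti-PD1, at a labelled exposure of 16 d. All groups of the 10 d and tumor tables therefore share 1 parental line. No label ties the 10 d libraries to independent cultures. Their p-values therefore rest on the spread among these libraries alone, which may be technical.

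In neurons and neuroendocrine cells a vesicle SNARE of the VAMP family pairs with syntaxin and SNAP proteins of the plasma membrane, and their zippering drives fusion. Synaptotagmins sense calcium and trigger that step, complexins clamp and assist it, syntaxin-binding proteins hold syntaxin, Munc13 proteins (Unc13a to Unc13c) prime the vesicle, and Rim proteins join Rab3-bearing vesicles to calcium channels. Synapsins and SV2 glycoproteins sit on the vesicle itself. LSD1 (Kdm1a) works within the CoREST complex, which the repressor REST brings to many neuronal genes.

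The sequences below are RefSeq promoter windows (assembly GRCm38.p6) of 250 bases before and 50 bases after a gene start, printed 5′ to 3′ on the gene's strand, for members that the results turn on. Syt1 rose in culture and fell in tumors, Stxbp6 rose in both, Unc13a fell in both, and Syn1 fell in tumors. Capitals mark matches on either strand to the left element (CAGCACC) or right element (GGACAG) of the site that REST binds, or to the E-box CAGCTG, a site of basic helix-loop-helix factors. All genes shown lie on the minus strand. The Syt1 windows belong to separate starts of the gene at chr10:109009062-109009361 and chr10:109010926-109011225, Stxbp6 lies at chr12:45074434-45074733, Unc13a at chr8:71671708-71672007 and Syn1 at chrX:20920869-20921168.
Syt1, first window: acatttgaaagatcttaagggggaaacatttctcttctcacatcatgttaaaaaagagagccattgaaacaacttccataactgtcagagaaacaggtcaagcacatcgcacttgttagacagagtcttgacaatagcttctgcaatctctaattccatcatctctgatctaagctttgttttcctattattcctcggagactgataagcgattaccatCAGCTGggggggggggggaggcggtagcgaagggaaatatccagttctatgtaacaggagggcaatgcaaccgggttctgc
Syt1, second window: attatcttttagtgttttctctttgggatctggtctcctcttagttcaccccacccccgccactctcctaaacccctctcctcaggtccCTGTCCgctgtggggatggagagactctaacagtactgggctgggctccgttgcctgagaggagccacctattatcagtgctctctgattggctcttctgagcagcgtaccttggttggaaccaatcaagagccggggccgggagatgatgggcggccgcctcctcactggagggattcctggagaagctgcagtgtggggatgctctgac
Stxbp6: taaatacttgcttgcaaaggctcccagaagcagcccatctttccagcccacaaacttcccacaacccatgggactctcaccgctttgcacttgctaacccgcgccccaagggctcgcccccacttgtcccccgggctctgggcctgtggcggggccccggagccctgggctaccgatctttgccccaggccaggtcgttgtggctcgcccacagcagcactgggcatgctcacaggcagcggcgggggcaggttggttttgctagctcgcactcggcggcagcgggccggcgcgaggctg
Unc13a: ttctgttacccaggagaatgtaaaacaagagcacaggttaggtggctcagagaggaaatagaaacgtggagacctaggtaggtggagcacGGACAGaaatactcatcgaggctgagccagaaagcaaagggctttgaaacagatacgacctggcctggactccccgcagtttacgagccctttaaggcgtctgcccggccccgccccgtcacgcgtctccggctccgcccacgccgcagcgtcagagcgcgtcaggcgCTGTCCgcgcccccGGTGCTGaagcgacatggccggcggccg
Syn1: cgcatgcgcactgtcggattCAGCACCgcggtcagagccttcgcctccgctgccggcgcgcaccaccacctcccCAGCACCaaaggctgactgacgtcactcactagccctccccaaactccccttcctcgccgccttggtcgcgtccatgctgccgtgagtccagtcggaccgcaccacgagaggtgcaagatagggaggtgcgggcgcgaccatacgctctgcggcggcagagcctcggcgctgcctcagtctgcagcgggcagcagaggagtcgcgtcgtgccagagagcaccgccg

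The table matched 69 of the 89 members by symbol, with 90 windows. The left element was present in 9 of the 90 member windows and in 7.14% of all 32851 windows. The right element was present in 19 member windows, of 15 members, and in 22.2% of all windows. The E-box was present in 22 member windows, of 19 members, and in 16.3% of all windows. Both REST elements at a spacing of 2 bases were found in 0.0365% of all windows and in 0 of the 90 member windows. Pairs at other spacings were not searched for. The Syt1 windows held 1 E-box and 1 right element, the Unc13a window held 1 left and 2 right elements, and the Syn1 window held 2 left elements. In the Unc13a window the left element, from base 273, and a right element, from base 259, both matched the strand opposite to the printed one. Read on that strand, the left element comes first. No match to these letters was found in the Stxbp6 window. The capitalised matches share no bases with each other. The GC box GGGCGG, not capitalised here, was present in 60 of the 90 member windows and in 35.7% of all windows. These matches describe letters within 300 bases and say nothing of binding.

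Depth was 8712025 to 9968681 counted reads per library at 96 h, 5896627 to 9044398 at 10 d and 5638353 to 8359111 in 16 of the 18 tumors. Vehicle tumors 1 and 2 were deeper, at 82205546 and 13150056 reads, and they also stood apart in the genes they expressed. Rest was at 30.6 and 20.4 CPM (counts scaled to a common library size, with TMM factors) in them, at 3.43 to 6.18 in the other vehicle tumors and at 37.7 to 46.3 in BOM tumors. Values without both are given for the count of called members and for the genes named with it. Neuroendocrine markers such as Insm1 and Chga were all detected, and their summed level was 3150 to 3750 CPM at 10 d and 2630 to 3510 CPM in tumors, overlapping between treated and control groups. Transcripts of Kdm1a, the target of BOM, are no check on an enzyme inhibitor. They were 206, 206 and 219 CPM with DMSO and 170 and 176 CPM with BOM at 10 d, and 445 to 541 CPM in vehicle and 411 to 456 CPM in BOM tumors.

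In culture at 10 d, BOM raised the calcium sensor gene Syt1 and the SNARE regulator gene Stxbp6 about equally, by 5.06-fold and 5.16-fold, and lowered the priming gene Unc13a. Called members (edgeR quasi-likelihood test, Benjamini-Hochberg adjusted p under 0.05 over all genes) were 15 higher and 8 lower of 75, or 20% and 10.7%. Among all 15230 genes tested, 12.1% were called higher and 8.25% lower. The median log2 fold change was 0.06 over members and -0.01 over all genes. In each of the 23 called members, with 2 libraries set against 3, the BOM and DMSO libraries did not overlap. The call itself favours such separation, which was not counted over all genes and so marks nothing particular to members.

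In tumors the change with BOM lay mostly in the other direction. Against vehicle, 1 member of 75 was called higher (Stxbp6, 1.33%) and 20 were called lower (26.7%), beside 5.9% and 8.63% of all 14332 genes. The median log2 fold change was -0.13 over members and -0.02 over all genes. Between tumors given BOM plus anti-PD1 and anti-PD1 alone, which share no animal with the first comparison, 12 members were called higher (16%) and 21 lower (28%), beside 15.8% and 16.6% of all genes. Of the members called lower, 18 were shared, 90% of the 20 in the first comparison and 85.7% of the 21 in the second. Shared calls were not counted over all genes, and both comparisons take their estimate of spread from the same fit. Groups did not overlap for 10 of the 20 lower members and for Stxbp6 in the first comparison. In the second they did not overlap for 20 of the 21 lower and 10 of the 12 higher members. Separation was not counted over all genes here either, so these counts cannot be set against a general share. In bulk tumors, fewer cells of a type and less RNA per cell cannot be told apart.

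**Figure D1:**
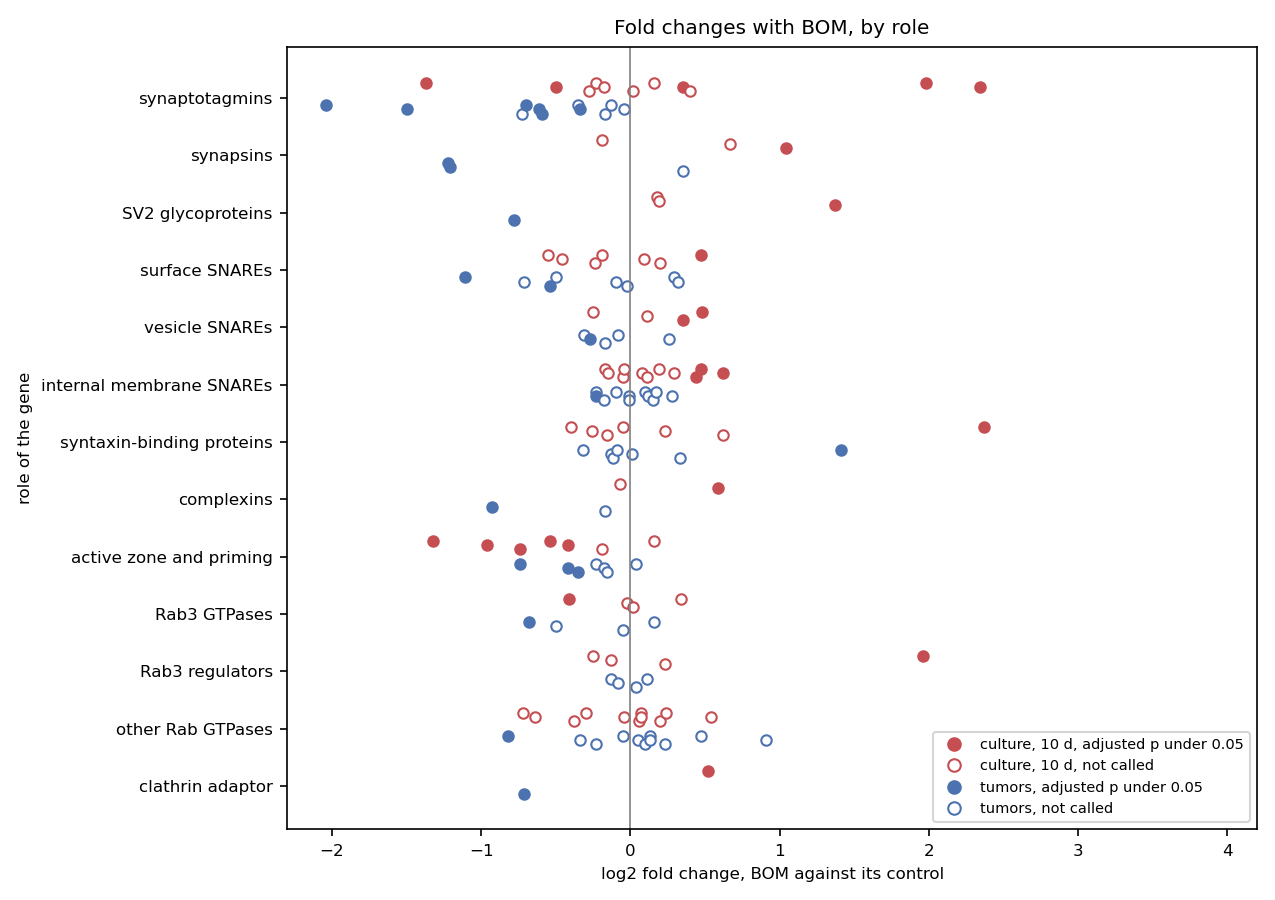
Log2 fold change of each tested member (x axis) by role (y axis), for BOM against DMSO in culture at 10 d (red) and BOM against vehicle in tumors (blue); filled points had an adjusted p under 0.05. Of the 7 active zone and priming genes tested, 5 were called lower in culture, and 6 of 11 synaptotagmins were called lower in tumors.

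Of the synaptotagmins, 11 were tested at 10 d, where 3 were called higher (Syt1, Syt13, Syt2) and 2 lower (Syt17, Syt7). Syt1, the fast calcium sensor of synaptic vesicle fusion, was at 9.58, 11.1 and 9.3 CPM with DMSO and at 53.3 and 47.8 CPM with BOM. Both BOM libraries lay far above all DMSO libraries (log2 fold change 2.34 ± 0.15 SE, edgeR adjusted p = 7.85e-09). In cells that also received IFNg, Syt1 was at 9.2, 13.4 and 10.9 CPM with DMSO and at 60.1 and 64.5 CPM with BOM, a separation of the same order (2.48, edgeR adjusted p = 2.51e-09). Syt13, a synaptotagmin that lacks calcium-binding residues, was at 6.39, 4.19 and 3.69 CPM with DMSO and at 18.1 and 20 CPM with BOM. It rose by 1.98 ± 0.26 (SE) on the log2 scale (edgeR adjusted p = 2.66e-05). Syt17 moved the other way, from 23.1, 25.8 and 22.1 CPM to 8.67 and 9.61 CPM (-1.37 ± 0.18, edgeR adjusted p = 3.15e-05). Syt11, a synaptotagmin that does not bind calcium and one of the most abundant members per length, stayed at 371 to 372 CPM with DMSO and was 347 and 408 CPM with BOM (0.02, edgeR adjusted p = 0.895).

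In tumors the same family had 6 of 11 tested genes lower with BOM and 0 higher. Syt1 was at 19.3, 30.8, 42.8, 48.5 and 45.4 CPM in vehicle tumors and at 5.22, 14.7, 8.33 and 7.45 CPM in BOM tumors. The groups did not overlap, and vehicle tumors 1 and 2 were the lowest of their group (log2 fold change -2.04 ± 0.28 SE, 4.12-fold lower, edgeR adjusted p = 0.000361). Without those 2 tumors the log2 fold change was -2.35 (edgeR adjusted p = 1.31e-06). With anti-PD1 alone Syt1 was at 47.1, 57.1, 41.7, 42.3 and 51.4 CPM, and with BOM plus anti-PD1 at 13.2, 11.3, 8.58 and 10.3 CPM, again without overlap (-2.14 ± 0.28, edgeR adjusted p = 5.86e-05). Syt4, a synaptotagmin of dense-core granules, was at 20.4, 24.2, 43.6, 41.9 and 39.4 CPM in vehicle tumors and at 7.89, 14.8, 14.9 and 9.72 CPM in BOM tumors. All BOM tumors lay below all vehicle tumors (2.82-fold lower, edgeR adjusted p = 0.00104). Syt11 was at 295, 313, 327, 345 and 379 CPM in vehicle tumors and at 214, 252, 208 and 208 CPM with BOM (-0.59 ± 0.08, edgeR adjusted p = 0.000379). Syt7, a slow, high-affinity calcium sensor, ranged from 212 to 322 CPM in vehicle and from 161 to 196 CPM in BOM tumors (-0.61 ± 0.13, edgeR adjusted p = 0.00439). The other 2 called lower were Syt16 and Syt9.

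**Figure D2:**
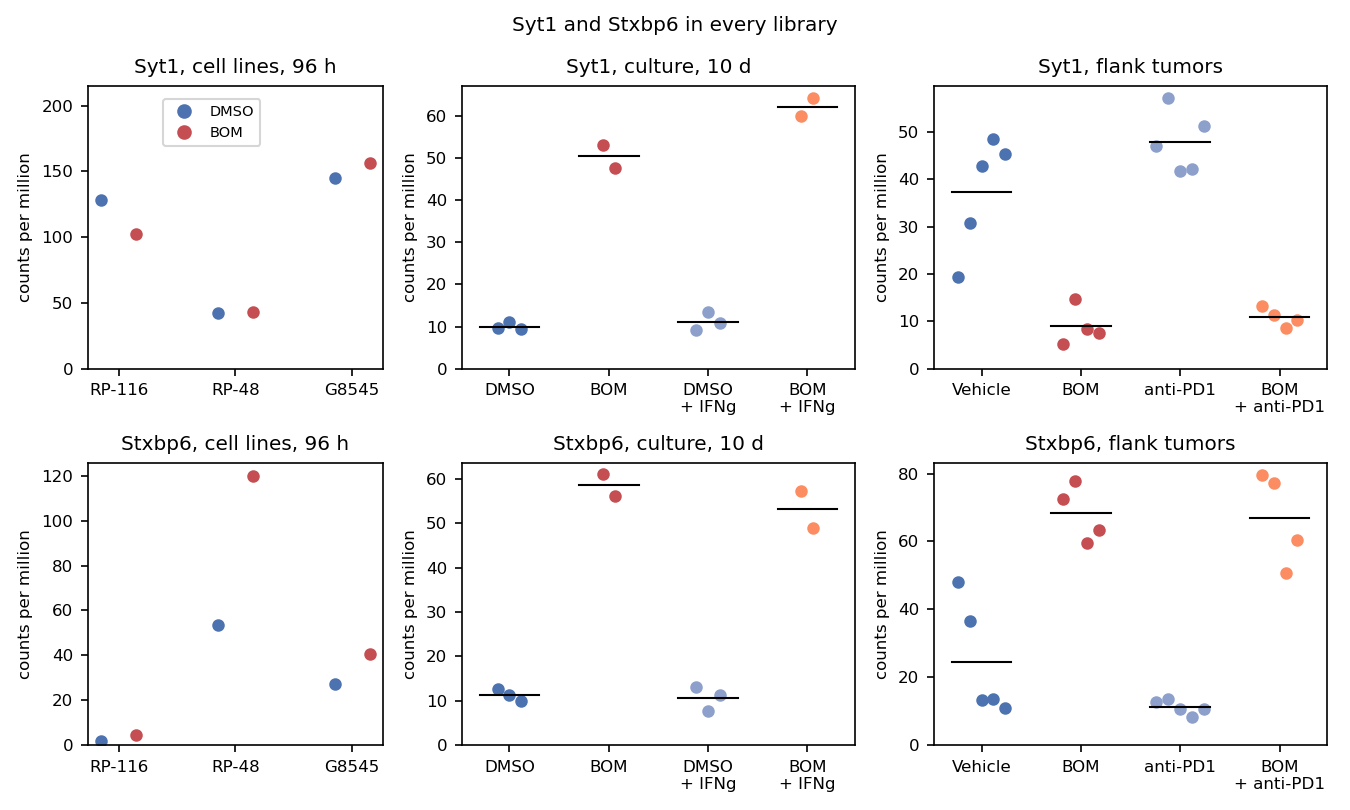
CPM (y axis) of Syt1 (top) and Stxbp6 (bottom) in every library of the cell lines at 96 h, the cultures at 10 d and the flank tumors; points are libraries and bars group means. Syt1 was higher with BOM at 10 d and lower with BOM in tumors, while Stxbp6 was higher with BOM in both, with vehicle tumors 1 and 2 at 48.1 and 36.5.

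Of the 7 syntaxin-binding proteins, Stxbp6 alone was called at 10 d and against vehicle in tumors. Stxbp6 encodes amisyn, a protein with a VAMP-like SNARE motif that binds syntaxin and restrains fusion. At 10 d it was at 12.6, 11.2 and 10 CPM with DMSO and at 61 and 56.2 CPM with BOM. This separation (log2 fold change 2.37 ± 0.17 SE, edgeR adjusted p = 2.37e-08) recurred with IFNg, where levels were 13.2, 7.59 and 11.2 CPM without and 57.3 and 49 CPM with BOM (2.31, edgeR adjusted p = 3.18e-08). In tumors Stxbp6 was at 48.1, 36.5, 13.2, 13.4 and 11 CPM with vehicle and at 72.6, 77.8, 59.6 and 63.2 CPM with BOM. The groups did not overlap, but vehicle tumors 1 and 2 lay between the other vehicle tumors and the BOM tumors. The log2 fold change was 1.41 ± 0.32 (SE, 2.65-fold, edgeR adjusted p = 0.00877) with those 2 tumors and 2.45 (edgeR adjusted p = 5.11e-08) without them. Against anti-PD1 tumors at 12.7, 13.6, 10.5, 8.16 and 10.7 CPM, tumors with BOM plus anti-PD1 were at 79.7, 77.2, 50.8 and 60.4 CPM (2.59 ± 0.36, 6.04-fold, edgeR adjusted p = 9.39e-05).

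Of the synapsins and SV2 glycoproteins, Syn2 and Sv2b were called higher at 10 d, and Syn1, Syn2 and Sv2a were called lower in tumors. Sv2b, a vesicle glycoprotein, was at 22.1, 24 and 25.1 CPM with DMSO and at 61 and 61.4 CPM with BOM at 10 d, with no overlap (1.37 ± 0.14, edgeR adjusted p = 1.5e-06). In tumors it was at 0.53 to 1.52 CPM with vehicle and did not pass the filter. Syn2, which tethers vesicles to actin, was at 70.1, 57.8 and 57.4 CPM with DMSO and at 136 and 118 CPM with BOM (1.04 ± 0.12, edgeR adjusted p = 6.97e-06). In vehicle tumors Syn2 was at only 3.72 to 7.93 CPM, and in BOM tumors at 1.34 to 4.04 CPM (-1.22, edgeR adjusted p = 0.0133). Its groups overlapped, since vehicle tumors 1 and 2 were at 4.12 and 3.72 CPM, and without them the log2 fold change was -1.55 (edgeR adjusted p = 0.000875). Syn1 was at 66.1, 52.8 and 54.8 CPM with DMSO and 48.9 and 52.6 CPM with BOM at 10 d, a difference that was not called (-0.19, edgeR adjusted p = 0.325). In tumors Syn1 was at 27.8, 35.9, 45.2, 50.5 and 57.7 CPM with vehicle and at 15.1, 24, 21.4 and 14 CPM with BOM. All BOM tumors lay below all vehicle tumors (-1.21 ± 0.21, edgeR adjusted p = 0.00178). Sv2a, the most widely expressed SV2 protein, was at 19.2, 21.5, 24, 29 and 30 CPM with vehicle and at 15.7, 16.2, 13.6 and 11.9 CPM with BOM (-0.78 ± 0.14, edgeR adjusted p = 0.00206). At 10 d Sv2a was at 54.1 to 68.7 CPM with DMSO and 65 and 70.7 CPM with BOM (0.19, edgeR adjusted p = 0.253).

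**Figure D3:**
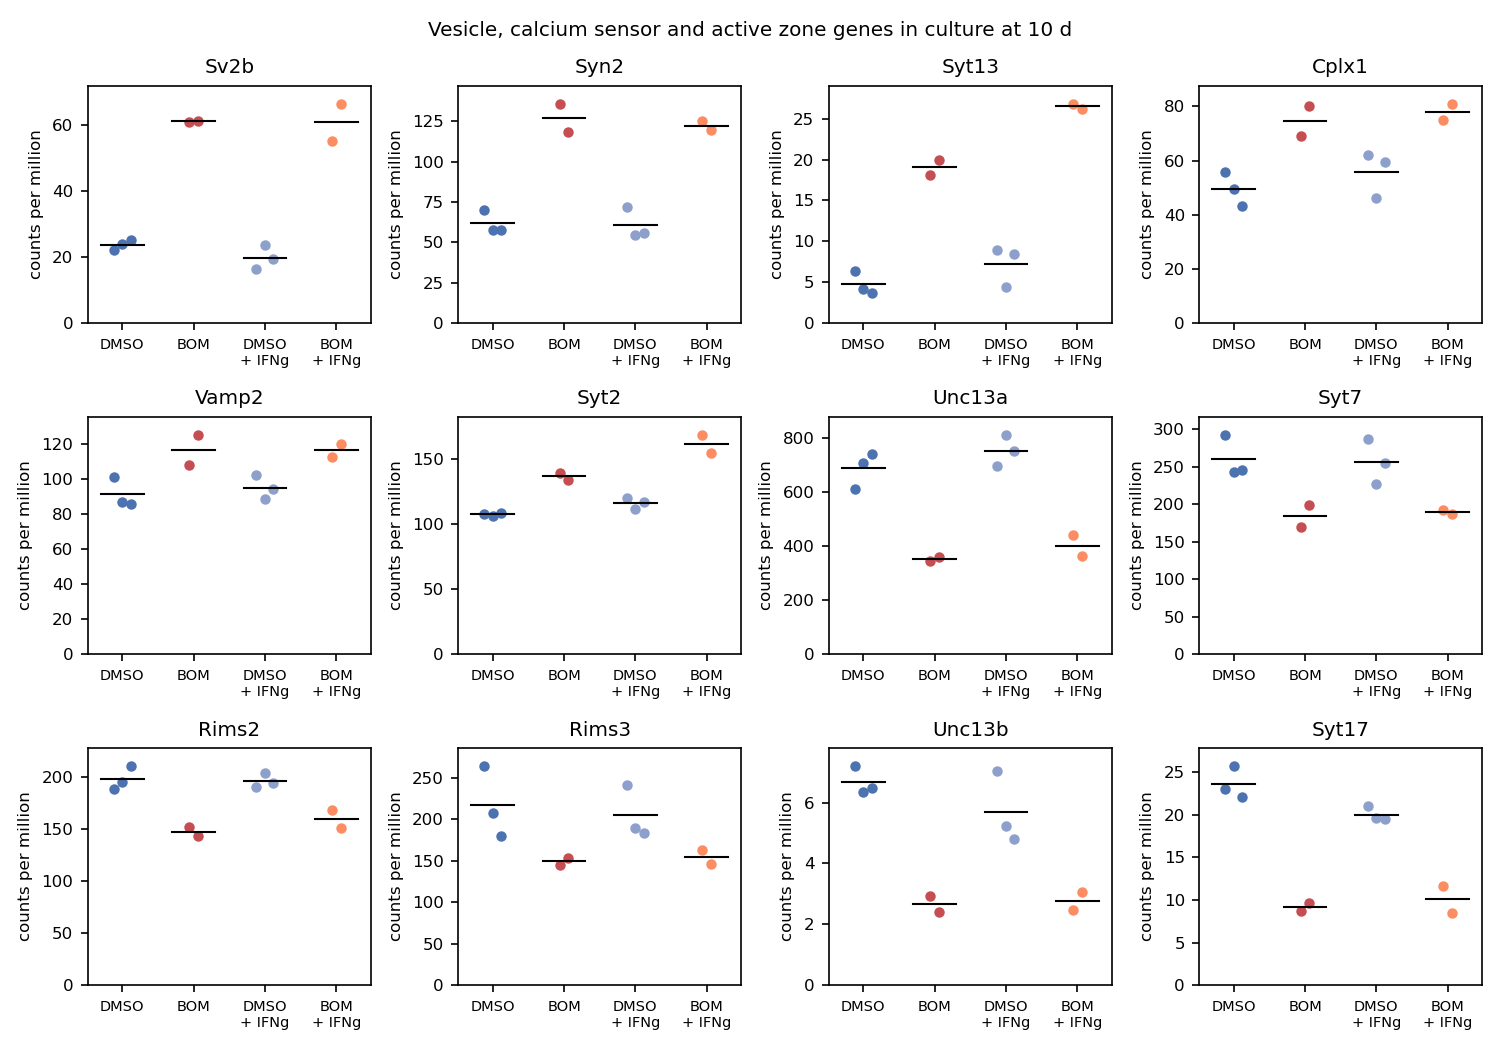
CPM (y axis) of vesicle, calcium sensor and active zone genes in each culture at 10 d, by treatment (x axis); points are libraries and bars group means. Sv2b was at 22.1 to 25.1 with DMSO and at 61 and 61.4 with BOM, whereas Unc13a was at 612 to 742 with DMSO and at 344 and 359 with BOM.

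Among SNAREs of the cell surface, 1 of 7 tested genes was called higher at 10 d (Stx4a, a ubiquitous syntaxin) and 2 of 8 were called lower in tumors (Snap25 and Stx3). Snap25, the neuronal surface SNARE, was at 551, 624 and 598 CPM with DMSO and at 540 and 492 CPM with BOM, which did not pass the test (-0.19, edgeR adjusted p = 0.174). In tumors it was at 102, 138, 168, 170 and 161 CPM with vehicle and at 55.4, 85.5, 80.3 and 52.3 CPM with BOM. The groups did not overlap (-1.11 ± 0.17, edgeR adjusted p = 0.000738), and the anti-PD1 groups, at 168 to 195 CPM without and 62.6 to 94.8 CPM with BOM, did not overlap either (-1.15, edgeR adjusted p = 0.000125). Stx3, a syntaxin of granule exocytosis, was at 50.8 to 68.4 CPM with vehicle and at 34.8 to 44.7 CPM with BOM (-0.54 ± 0.09, edgeR adjusted p = 0.00163). Stx1a, the neuronal syntaxin, was at 0.53 to 2.13 CPM in vehicle tumors and 1.07 to 3.22 CPM in BOM tumors (0.29, edgeR adjusted p = 0.687) and did not pass the filter at 10 d.

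Of 4 vesicle SNAREs tested at 10 d, Vamp2 and Vamp3 were called higher. Vamp2, the SNARE of synaptic vesicles, was at 101, 86.7 and 85.7 CPM with DMSO and at 108 and 125 CPM with BOM (0.35 ± 0.10, edgeR adjusted p = 0.0204). That call was lost without DMSO library 2, DMSO library 3 or BOM library 2, with adjusted p up to 0.265 by edgeR. In tumors Vamp2 was at 124, 131, 120, 136 and 141 CPM with vehicle and at 102, 122, 107 and 100 CPM with BOM (-0.27 ± 0.07, edgeR adjusted p = 0.0164). These groups overlapped, and the tumor call was lost when BOM tumor 1 or BOM tumor 4 was left out. Among 11 SNAREs of internal membranes, 3 were called higher at 10 d (Vamp4, Snap47 and Stx16) and 1 was called lower in tumors (Stx12). Vamp4, a SNARE of the trans-Golgi network and endosomes, was at 36, 35.2 and 33.4 CPM with DMSO and 53.3 and 53.5 CPM with BOM (0.62 ± 0.13, edgeR adjusted p = 0.00234). Snap91, which gathers clathrin and VAMP proteins during vesicle retrieval, was at 172, 181 and 174 CPM with DMSO and 251 and 253 CPM with BOM (0.52 ± 0.08, edgeR adjusted p = 8.39e-05). In tumors Snap91 went from 70.7 to 114 CPM with vehicle to 43.4 to 76.1 CPM with BOM, ranges that overlapped at vehicle tumor 1 (-0.71 ± 0.16, edgeR adjusted p = 0.00704). Without vehicle tumors 1 and 2 it was -0.89 (edgeR adjusted p = 0.000326).

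Of the 7 active zone and priming genes tested at 10 d, 5 were called lower with BOM (Unc13a, Rims2, Unc13b, Rims4 and Rims3) and 0 higher. Unc13a, which encodes Munc13-1, was at 612, 707 and 742 CPM with DMSO and at 344 and 359 CPM with BOM, well below every DMSO library (-0.96 ± 0.11, edgeR adjusted p = 3.8e-06). With IFNg it was at 696, 813 and 751 CPM without BOM and at 440 and 362 CPM with BOM, and the same 5 genes of this role were called lower there. Rims2, a scaffold that links calcium channels to Rab3, was at 188, 195 and 210 CPM with DMSO and at 151 and 142 CPM with BOM (-0.42 ± 0.09, edgeR adjusted p = 0.00209). Rims1 was at 19.1 to 28.3 CPM with DMSO and at 26.3 and 25.8 CPM with BOM (0.16, edgeR adjusted p = 0.511). In tumors 3 of 7 were called lower (Unc13a, Rims3 and Rims2) and 0 higher. Unc13a was at 149, 198, 238, 279 and 232 CPM with vehicle and at 125, 154, 145 and 98.5 CPM with BOM (-0.74 ± 0.20, edgeR adjusted p = 0.0185). Its groups overlapped at vehicle tumor 1, and the call was lost when BOM tumor 1, BOM tumor 4 or vehicle tumor 4 was left out. Without vehicle tumors 1 and 2 the log2 fold change was -0.94 (edgeR adjusted p = 0.00181).

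Of the 2 complexins tested, Cplx1 was called higher in culture and lower in tumors. Cplx1 was at 55.8, 49.5 and 43.2 CPM with DMSO and at 69.1 and 80 CPM with BOM at 10 d (0.59 ± 0.13, edgeR adjusted p = 0.00364), and that call was lost without BOM library 2 (edgeR adjusted p = 0.0801). In tumors it was at 33.8, 50.5, 52.3, 51.8 and 59.2 CPM with vehicle and at 16.6, 33.5, 33.5 and 19.9 CPM with BOM (-0.93 ± 0.25, edgeR adjusted p = 0.0194). The tumor call was lost when BOM tumor 1, BOM tumor 4 or vehicle tumor 5 was left out, and in the fit with a replicate block. Cplx2, the member with the highest level per length in each table, was not called in either setting. It was at 419 to 553 CPM with DMSO and at 409 and 477 CPM with BOM, and at 573 to 672 CPM in vehicle and 429 to 661 CPM in BOM tumors. Rab3a, the main Rab3 GTPase of regulated secretion, was at 49.9, 59.8, 61.8, 62.8 and 83 CPM with vehicle and at 40.1, 44.8, 39.2 and 34 CPM with BOM, without overlap (-0.68 ± 0.14, edgeR adjusted p = 0.00415). At 10 d Rab3a was at 45.8 to 54.3 CPM with DMSO and 58.2 and 67.9 CPM with BOM (0.34, edgeR adjusted p = 0.0729). In 6 of 18 alternative fits, among them limma voom, Rab3a was called higher at 10 d. Of the 11 other Rab GTPases tested, 0 were called at 10 d and 1, Rab39, was called lower in tumors.

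**Figure D4:**
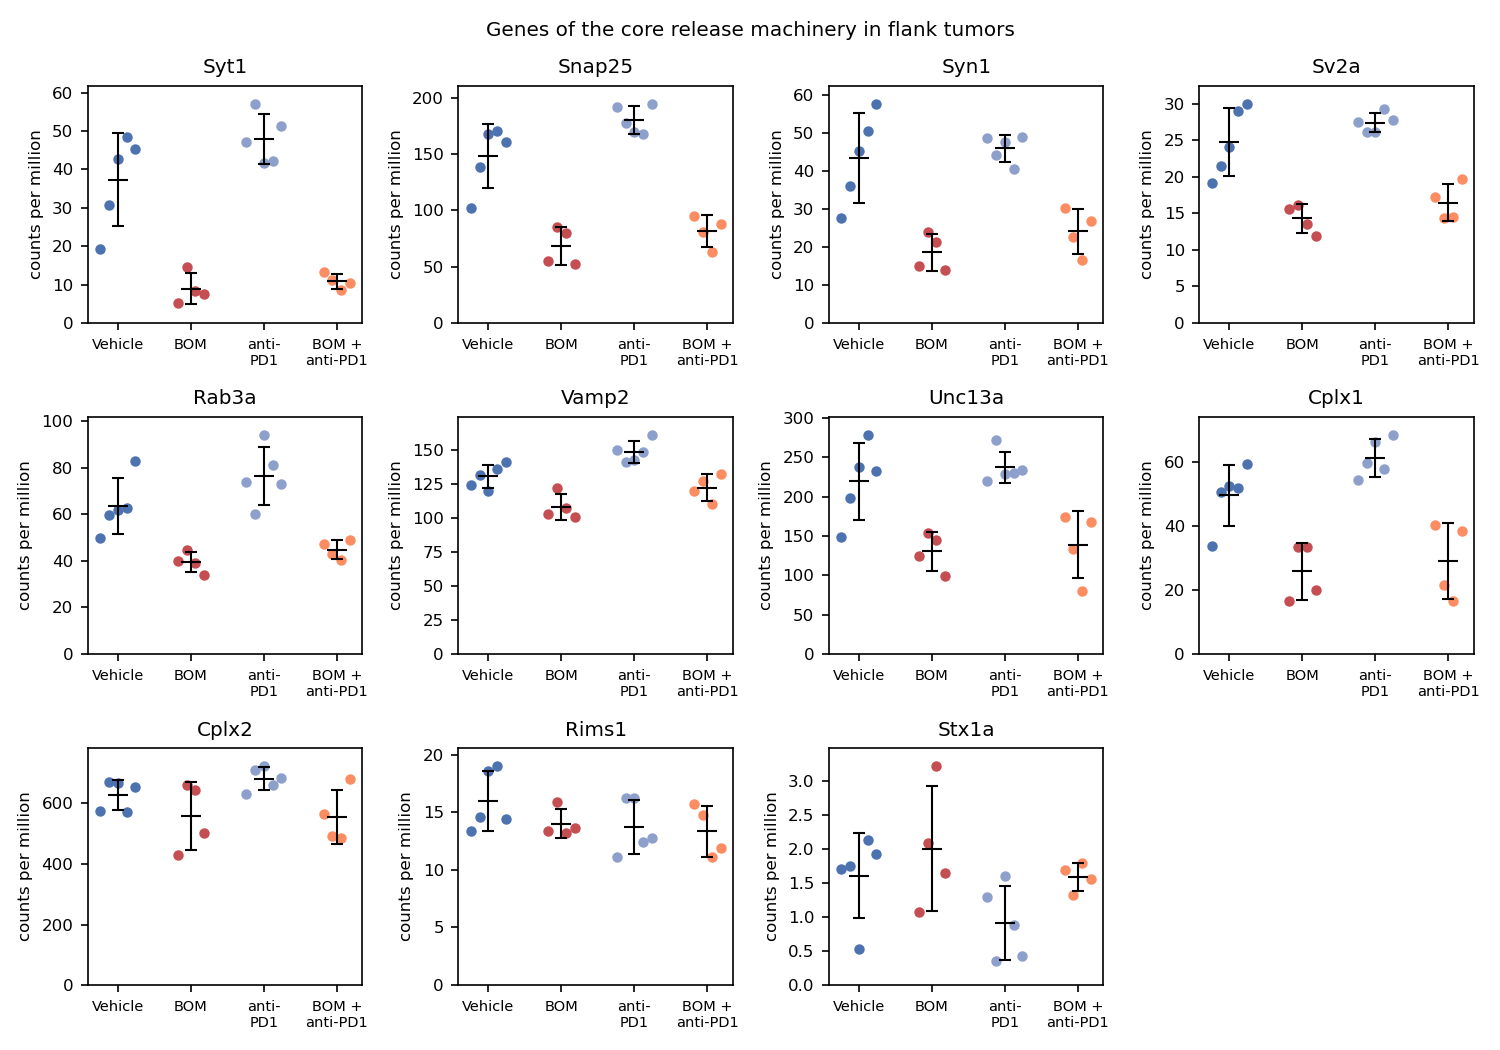
CPM (y axis) of 11 core release genes in each flank tumor, by treatment (x axis); points are tumors, bars the mean and whiskers 1 SD. The 8 genes of the upper 2 rows were called lower with BOM both against vehicle and on top of anti-PD1, whereas Cplx2, Rims1 and Stx1a were not called.

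A list of 12 genes that form the core of regulated release, among them Syt1, Syn1, Sv2a, Stx1a, Snap25, Vamp2, Cplx1, Cplx2, Rims1, Unc13a and Rab3a, gave counts of 3 higher and 1 lower of 11 tested at 10 d, beside 12.1% and 8.25% of all genes. In tumors it gave 0 higher and 8 lower of 12, both against vehicle (5.9% and 8.63% of all genes) and between the anti-PD1 groups (15.8% and 16.6% of all genes). The list was chosen with earlier results of these data known, so these counts describe it and test nothing. Against vehicle, the calls of Cplx1, Unc13a and Vamp2 were each lost when certain single tumors were left out. The median log2 fold change of the list was 0.19 at 10 d and -0.71 in BOM against vehicle tumors. Members called higher at 10 d and lower in BOM against vehicle tumors were Syt1, Syn2, Snap91, Cplx1 and Vamp2. Syt7, Rims3, Unc13a and Rims2 were called lower in both, and Stxbp6 was called higher in both. The tables were normalised separately, the 10 d libraries are labelled total RNA and the tumor libraries polyA RNA, so the difference between culture and tumor was not tested. Some levels differed widely between these tables: Syt4 was at 0 to 0.335 CPM with DMSO at 10 d against 20.4 to 43.6 CPM in vehicle tumors. Syt1 in all DMSO libraries at 10 d also lay below every vehicle tumor, and with BOM at 10 d it was close to the highest vehicle tumors.

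Other markers moved with BOM beside these genes. The summed level of 7 genes of a non-neuroendocrine state was 76.5 to 95.2 CPM with DMSO and 480 to 511 CPM with BOM at 10 d, with all 7 detected in both groups. In tumors it was 157 to 497 CPM with vehicle, the highest being vehicle tumor 1, and 408 to 463 CPM with BOM. The 11 leukocyte markers summed to 7.64 to 14.2 CPM with DMSO and 8.83 to 11 CPM with BOM in culture, where Nkg7, Lyz2, C1qa and Itgam were at 0 in both groups. In tumors all 11 were detected, and they summed to 372 to 1000 CPM with vehicle and 316 to 833 CPM with BOM, ranges that overlapped. The 6 muscle markers summed to 1100 CPM in BOM tumor 2 and 133 CPM in vehicle tumor 1. The 4 Schwann cell markers, a cell type that also expresses some vesicle genes, summed to 25.5 to 35 CPM with DMSO and 80.2 to 82.5 CPM with BOM at 10 d, with all 4 detected in both groups. In tumors they summed to 71.6 to 84.9 CPM with vehicle and 63.4 to 72 CPM with BOM. At 10 d the 6 fibroblast markers, all detected, summed to 16.4 to 20.2 CPM with DMSO and 48.5 to 58.1 CPM with BOM. The 4 endothelial markers summed to 9.83 to 12.1 CPM with DMSO and 33.8 to 47.4 CPM with BOM, where Cdh5 was at 0. The 4 mast cell markers went the other way at 10 d, from 163 to 181 CPM with DMSO to 54.7 to 58.1 CPM with BOM, with Cpa3 and Mcpt4 at 0 in both groups. These 4 lists did not overlap between the DMSO and BOM libraries of the cultured line. The part of these markers in the results was not tested.

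Leaving out vehicle tumors 1 and 2, a choice made after the data were seen, gave 27 called members, 6 higher and 21 lower. In that fit 23.3% of all genes were called, against 14.5% in the full comparison, so calls rose among all genes as well. All 20 members lower in the full comparison were among the 21, with Snap47 in addition. The members called higher were Stxbp6, Snap23, Stxbp3, Rab32, Rab34 and Rab37. Without those 2 tumors the log2 fold change was -1.81 for Syt4, -1.46 for Syn1, -1.28 for Snap25, -1.07 for Cplx1, -0.95 for Sv2a and -0.81 for Rab3a. It was -0.74 for Syt7, -0.67 for Syt11, -0.63 for Stx3 and -0.29 for Vamp2. Leaving out BOM tumor 1 or BOM tumor 4 gave 13 called members each, 1 higher and 12 lower, beside 8.75% and 8.65% of all genes called.

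The immune treatments moved few members. IFNg in DMSO cells called 1 member, beside 2.27% of all genes. The call was lost without DMSO library 2, DMSO library 3 or DMSO plus IFNg library 3. IFNg in BOM cells called Vamp1 and Syn1, beside 2.06% of all genes. Vamp1, a vesicle SNARE, was at 16.9 and 15.3 CPM without and 28.7 and 24.5 CPM with IFNg (0.72, edgeR adjusted p = 0.0233). Syn1 was at 48.9 and 52.6 CPM without and 71.2 and 81.7 CPM with IFNg (0.59, edgeR adjusted p = 0.0245). Each of these calls was lost in 3 of the 4 fits that left out 1 library of the 2 groups.

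BOM on top of IFNg called 15 members higher and 9 lower, beside 13% and 10.1% of all genes. Against the comparison without IFNg, which used other libraries, 11 higher calls were shared (73.3% of each list) and 7 lower calls (87.5% of 8 and 77.8% of 9). Here too, shared calls were not counted over all genes, and both comparisons come from the same fit. The interaction of BOM with IFNg called 0 members and 0% of all genes by edgeR, with 2 members at an unadjusted p under 0.05 and 0 called by DESeq2. Anti-PD1 against vehicle called 0 members and 0% of all genes by edgeR, where 6 members had an unadjusted p under 0.05 and the smallest adjusted p was 0.259. BOM plus anti-PD1 against BOM called 0 members and 0.00698% of all genes by edgeR, with 3 members at an unadjusted p under 0.05. The interaction of BOM with anti-PD1 called 0 members and 0% of all genes by edgeR, with 5 members at an unadjusted p under 0.05. DESeq2 and limma voom called 0 members in each of these last 3 comparisons. The share of all genes at an unadjusted p under 0.05 is not given here, and some genes pass it by chance. The unadjusted counts therefore mark nothing particular to members.

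The 3 cell lines at 96 h differed more from each other than with treatment. BOM against DMSO, with cell line as a block, called 0 members and 0% of all genes by edgeR, where 5 members had an unadjusted p under 0.05 and the smallest adjusted p was 0.293. That unadjusted count has no share of all genes beside it and marks nothing particular to members. DESeq2 called 1 member, Stxbp6, and limma voom 0. Stxbp6 was higher with BOM in each line, at 1.95 and 4.56 CPM in RP-116, 53.4 and 120 CPM in RP-48 and 27.3 and 40.7 CPM in G8545 (0.94 ± 0.19, edgeR unadjusted p = 0.00117). Syt1 was at 128 and 103 CPM with DMSO and BOM in RP-116, 42.6 and 42.8 CPM in RP-48 and 145 and 156 CPM in G8545 (-0.07, edgeR adjusted p = 0.97). Rest, by comparison, went from 0.243 to 2.93 CPM, from 19.1 to 25.2 CPM and from 2.67 to 37.2 CPM in these lines (edgeR adjusted p = 0.584). With 1 library per line and treatment, a response of a single line cannot be tested.

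RP-116 against the mean of the other 2 lines, with both treatments as replicates of a line, called 14 members higher and 19 lower of 79 (17.7% and 24.1%), beside 17.2% and 19.4% of all 14235 genes. The pair of libraries of a line comes from 1 line, so these p-values compare the lines and not kinds of tumor. Stxbp6 was much lower in RP-116 than in the others (-4.08, edgeR adjusted p = 1.39e-05). Against that mean, 8 synaptotagmins were called higher in RP-116 and 1 lower, but Syt1, Syt4 and Syt6 were lower in RP-116 than in G8545. Syt7 was at 718 and 423 CPM in RP-116 against 150 to 206 CPM in the others (1.64). Syt4 was at 41.9 and 37.6 CPM in RP-116, 2.51 and 1.41 CPM in RP-48 and 63 and 48.7 CPM in G8545. Syt6 was at 8.87 and 13.6 CPM in RP-116, between the other lines. Syt5 was at 32.6 and 24.2 CPM, 2.4 and 1.01 CPM, and 10 and 17.6 CPM in that order of lines (2.55, edgeR adjusted p = 0.000745). Stx1a was at 13.3 and 12.9 CPM in RP-116, 0.109 and 0.201 CPM in RP-48 and 1.05 and 5.45 CPM in G8545. Of the core list, Stx1a, Snap25 and Syt1 were called higher in RP-116 than the mean of the other lines, and Syn1, Unc13a, Rab3a, Vamp2 and Sv2a were called lower. Several of these calls rest on single libraries. Those of Rab3a, Vamp2 and Sv2a were lost without the BOM library of RP-116 or of RP-48, and that of Unc13a without the BOM library of RP-116. The Snap25 call was lost without the DMSO library of RP-116 or the BOM library of RP-48, and the Syt1 call without the DMSO library of RP-116 or either library of RP-48.

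G8545 against RP-48 called 15 members higher and 6 lower (19% and 7.59%), beside 11.8% of all genes in each direction. Syn2 was at 169 and 186 CPM in G8545 against 8.83 and 9.15 CPM in RP-48 (4.29, edgeR adjusted p = 8.18e-06). Syt6 was at 16.3 and 23.6 CPM against 0.436 and 0.302 CPM (5.70, edgeR adjusted p = 7.76e-05). Syt1 was also higher in G8545 (1.81, edgeR adjusted p = 0.000213), and Rab3b, a Rab3 GTPase of endocrine cells, was lower at 7.45 and 7.07 CPM against 30.6 and 36 CPM (-2.21, edgeR adjusted p = 0.00061).

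**Figure D5:**
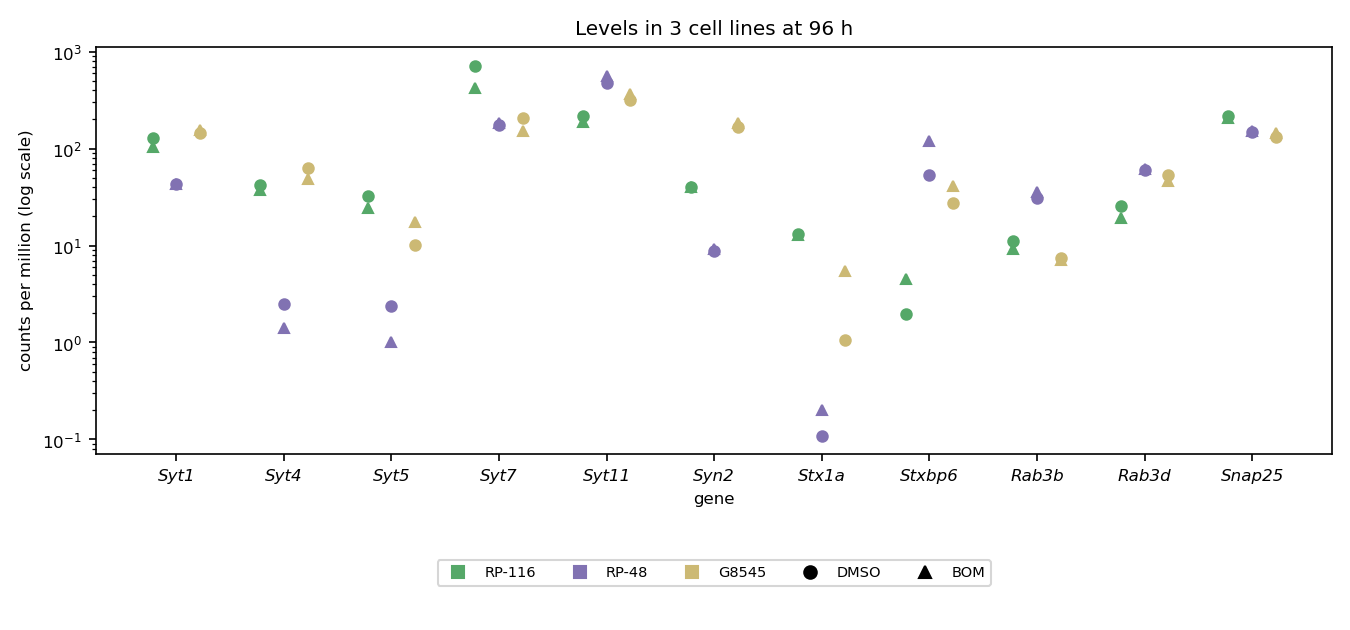
CPM on a log scale (y axis) of 11 members (x axis) in the lines RP-116, RP-48 and G8545 at 96 h, with DMSO (circles) and BOM (triangles), 1 library each. Stxbp6 was at 1.95 and 4.56 in RP-116 and at 53.4 and 120 in RP-48, and Syn2 was at 8.83 and 9.15 in RP-48 and at 169 and 186 in G8545.

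Levels were compared between genes only per kilobase of gene model. Cplx2 had the highest mean in each table, at 94.7 ± 15.2 CPM per kb (SD, n = 3) with DMSO at 10 d and 128 ± 10.2 CPM per kb (SD, n = 5) in vehicle tumors. In the 10 d cultures it was followed by Snap25 at 87 ± 5.46, Syt11 at 71.5 ± 0.144, and Unc13a at 54.5 ± 5.33 CPM per kb (SD, n = 3). Cplx2 and Snap25 differed by less than the SD of Cplx2, and the others lay further apart than their SDs. In vehicle tumors the next were Stx12 at 69.3 ± 5.39, Syt11 at 63.7 ± 6.18 and Syt7 at 37.4 ± 5.91 CPM per kb (SD, n = 5). Stx12 and Syt11 differed by less than the SD of Syt11.

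A list of 72 presynaptic partners that are not members, such as calcium channels, neurexins, vesicle transporters and exocyst subunits, had 10 called higher and 6 lower of 63 tested at 10 d, where 12.1% and 8.25% of all genes were called. Cacna1a, the pore of the P/Q-type calcium channel, was at 24, 23.6 and 25.3 CPM with DMSO and 51.7 and 54.8 CPM with BOM (1.13, edgeR adjusted p = 3.23e-06). Nrxn3, a presynaptic adhesion protein, was at 34.9, 50.5 and 47.4 CPM with DMSO and 15.3 and 21.5 CPM with BOM (-1.26, edgeR adjusted p = 7.53e-05). In BOM against vehicle tumors the list had 3 called higher and 15 lower of 61 tested, beside 5.9% and 8.63% of all genes. Rph3al, a Rab effector of granule secretion, was at 30.2, 33.4, 43.8, 48.2 and 56 CPM with vehicle and 19.3, 18, 15.4 and 19.2 CPM with BOM (-1.22, edgeR adjusted p = 0.000139). Slc18a1, the vesicular monoamine transporter of endocrine cells, was at 3.36 to 8.37 CPM with vehicle and at 1.35 to 1.74 CPM with BOM (-1.93, edgeR adjusted p = 0.00146). Cadps, which primes dense-core granules, and Cacna1c, an L-type channel, were called lower in both settings, with log2 fold changes of -0.46 and -0.52 at 10 d and of -0.72 and -1.01 in tumors.

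The library kit does not mark strand. Of the 85 members matched to the GENCODE M21 annotation, 19 share exon bases with a gene on the opposite strand, among them Syn1, Syn2, Unc13a, Rab3a, Syt7, Syt4, Sv2b and Stx4a. Reads of such a pair cannot be told apart where the exons overlap.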

How the data were processed

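The deposited tables hold raw counts of reads per gene, 1 column per library, which the authors made with STAR 2.7 and featureCounts of Subread 2.0 on mm10, per the submitters' processing notes. Libraries were made from 500 ng of RNA with the NEBNext Ultra RNA kit, whose standard form does not mark strand, per the labels' protocols. Depth was 5638353 to 9968681 counts in all libraries but 2 vehicle tumors.

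Counts were tested per table with edgeR 4.0.16 (R 4.3.3): TMM scaling, the filter filterByExpr by group, and the quasi-likelihood F-test over all groups of the table, with the cell line as a block at 96 h. P-values were adjusted by Benjamini-Hochberg over all genes tested (13333 at 96 h, 14235 between lines, 15230 at 10 d, 14332 in tumors), with 0.05 as the threshold of a call. Standard errors are the absolute log2 fold change divided by the square root of F. The test was checked on simulated counts, which held no differences between cell lines. Recovery of changed genes was not a condition of that check for the 96 h fit. Alternatives were DESeq2 1.42.0, limma 3.58.1 voom with sample weights, other filters, each library left out and a replicate block. The reported fits have no replicate block. Same-numbered DMSO and DMSO plus IFNg libraries had r = 0.393, 0.119 and 0.133 between their deviations from the group means. Libraries of these groups with unlike numbers had r = -0.277 to 0.177, so pairing by number is possible but not settled. If they are paired, the reported fit of IFNg in DMSO cells ignores it. The other same-numbered 10 d groups share only 2 numbers (r = 0.058 to 0.23), and tumor numbers did not pair. No 2 libraries were copies.

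The members and lists were chosen with earlier results of these data known. Named with values were the core release genes, the 10 called members of lowest p in BOM against DMSO at 10 d, BOM against vehicle and RP-116 against the other lines, the 5 of lowest p elsewhere, and the leading partner genes. Other called members, and the values of a member named in 1 setting in another, were added after their values were seen. Some members that this rule names are not reported here.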

Additional observations from a re-analysis of the deposited data

Results flagged for a closer look

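A tumor was set apart within its group where its gap to the nearest other tumor, divided by the group's range, passed the critical value of Dixon's test. Of 72 groups tested, 5 held such a tumor, and chance gives about 1 in 20. Rims1 was at 15.9 CPM in BOM tumor 2 against 13.2 to 13.6 CPM in the other BOM tumors. Syt11 was at 252 CPM in the same tumor, against 208 to 214 CPM. Stx1a was at 0.53 CPM in vehicle tumor 3 against 1.71 to 2.13 CPM. Stx3 was at 53.1 CPM in BOM plus anti-PD1 tumor 3 against 45.1 to 46.3 CPM. Unc13a was at 272 CPM in anti-PD1 tumor 2 against 220 to 234 CPM.

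Syt1 and Cplx1 moved in opposite directions with BOM in the 2 settings, with no overlap between groups in either. The log2 fold change of Syt1 was 2.34 at 10 d and -2.04 against vehicle in tumors. That of Cplx1 was 0.59 at 10 d and -0.93 in tumors. The difference between the settings was not tested.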

How the results depend on the processing

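Of 257 recomputed counts of called members, 237 stayed within 1.5 times the value reported. For BOM at 96 h, DESeq2 called 1, no filter called 2, and leaving out a line called 0 to 2. For IFNg in DMSO cells, limma voom with sample weights called 2, and leaving out a library called 0 to 1. For IFNg in BOM cells, a fit on only the groups compared called 1, and leaving out a library called 0 to 2. Leaving out a library called 21 to 45 for RP-116 against the other lines, 10 to 30 for G8545 against RP-48, 15 to 25 for BOM at 10 d, 11 to 26 for BOM with IFNg and 13 to 26 for BOM against vehicle. With the replicate block, which for most groups matches libraries that share only a number, the counts were 24 for BOM at 10 d, 26 with IFNg, 1 for IFNg in DMSO cells, 2 for IFNg in BOM cells, 18 for BOM against vehicle and 30 for BOM plus anti-PD1 against anti-PD1. The cause of these moves was not tested. Of 1699 recomputed values of single members, 53 were no longer called, 10 were newly called and 0 reversed. Low counts limit Stx1a, Sv2b in tumors and Syt4 at 10 d.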
